A study of Arabidopsis thaliana with 16 samples.

Results

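A set of 45 probe sets with more signal at 22 °C than at 16 °C in both wild-type and phyB-1 plants was followed across the 16 arrays of an Arabidopsis thaliana temperature experiment. The members came from 22746 probe sets, array controls left out, and were chosen by their measured temperature differences and time changes. A member had a mean log2(intensity + 16) at 22 °C at least 0.7 above that at 16 °C in Ler and also in phyB-1, and changed by under 1.5 between 4 h and 10 h in Ler at 16 °C, Ler at 22 °C and phyB-1 at 22 °C. The temperature limits were met by 60 probe sets and the time limits by 49 of them. ROF2, AT1G67865, AT3G24100 and AT4G19430 were left out by name, which gave the 45. The annotation table gives 1 gene for 20 members, several genes for 3 and does not list 22. The 20 genes are named below, and the values of the other members are given as counts and ranges, apart from 3 probe sets described by their identifiers.

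The plants carried either the Landsberg erecta (Ler) wild-type genotype or the single mutant allele phyB-1, and no further transgene or treatment is given in the labels. Each genotype was sampled at 16 °C and at 22 °C, 4 h and 10 h after an event that the labels do not name, with 2 arrays in each of the 8 groups. Whole soil-grown plants without their roots were used. One growth wording, 11 days at 16 °C and then 21 days at 22 °C, stands with all samples, and how long the 16 °C plants spent at each temperature is therefore unknown. Whether replicate arrays stand for separately grown plants is not stated, and all p-values here measure only the spread between these samples, which may be technical.

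Ambient temperature, within the range in which Arabidopsis is not stressed, changes growth rate, leaf shape and flowering time. Phytochrome B, the main red-light receptor of light-grown plants, also responds to temperature, because its active form reverts to the inactive form faster in the warmth. Active phytochrome B restrains the PIF transcription factors, and PIF4 drives the elongation of stems and petioles in warm conditions. A mutant without phytochrome B elongates in the light and flowers early, and the arrays compare how both genotypes stand at both temperatures.

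Each array's 2% trimmed mean of the deposited intensities lay within 0.00152% of the median array's, and the median intensity of the non-control probe sets ranged from 30.7 to 41 over the arrays. Replicate arrays correlated at 0.963 to 0.978 over all probe sets in 6 groups and at 0.918 and 0.920 in phyB-1 at 16 °C. Among the 13 members with a mean change of at least 0.8 between 4 h and 10 h, the phyB-1 16 °C arrays of replicate 1 changed in the direction of the other groups for 12 members, and those labelled replicate 2 for 1. The arrays labelled phyB-1 16 °C 4 h replicate 2 and phyB-1 16 °C 10 h replicate 2 thus went against their time labels. The differences of single genes use all 16 arrays unless stated otherwise, and some results are also given without these 2. Averages over both times at 16 °C are the same if the 4 h and 10 h labels of these arrays are exchanged. The leaf genes RCA and LHCB4.1, the 2 of 10 leaf markers with a named probe set, had 3995 to 11959 intensity units on every array. Root markers were represented by 2 of 12 genes, PYK10 at 92.2 to 374 units and EXPA7 at 0.996 to 46.1. Their summed level was 94.8 to 259 in Ler at 16 °C, 203 to 267 in Ler at 22 °C, 213 to 281 in phyB-1 at 16 °C and 312 to 375 in phyB-1 at 22 °C. It was higher at 22 °C without overlap in phyB-1 and overlapped in Ler, and its part in the results was not tested. EXPA7 was dim in phyB-1, with means of 9.39 at 16 °C and 7.53 at 22 °C, and only PYK10 had the higher mean at 22 °C there. Of 11 senescence markers 3 had a named probe set, and their summed level was 20.2 to 47.1 in Ler at 16 °C, 25.5 to 61.3 in Ler at 22 °C, 41.3 to 80.6 in phyB-1 at 16 °C and 21.2 to 38.3 in phyB-1 at 22 °C. It was lower at 22 °C without overlap in phyB-1 and overlapped in Ler, and its part in the members' differences was not tested either. Among the 3, WRKY53 and SWEET15 were dim, with group means of 3.77 to 15.1 units.

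The members were higher at 22 °C by a median of 0.87 on the log2 scale in Ler, with a range of 0.71 to 2.26, and by a median of 0.99 in phyB-1, with a range of 0.71 to 2.70. These differences chose the members and are a description without a test. The medians over all 22746 probe sets were 0.01 in Ler and -0.01 in phyB-1. The offset of 16 makes the scale understate the change of dim probe sets. In whole-plant RNA, fewer cells of a type and less RNA per cell cannot be told apart.

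The arrays differed in how far the members stood apart. The values were averaged over the members and centred on each member's mean over all arrays. The 16 °C arrays then lay between -0.86 and -0.30 and the 22 °C arrays between 0.31 and 0.79. The rule chose the members by these temperature differences, so nothing is read from this separation. When arrays of the same genotype, time and replicate number were set against each other, the median difference of the members was 1.13 to 1.32 in the 4 comparisons of replicate 1 arrays and 0.62 to 1.02 in the 4 of replicate 2 arrays. The medians of all probe sets in the same 8 comparisons were -0.05 to 0.03. The lower quartile of intensity also moved with the replicate number, at 9.63 to 11.5 units on replicate 1 arrays and 5.84 to 7.63 on replicate 2 arrays. The 3′ to 5′ log2 ratio of the GAPDH control probe sets was 0.507 to 1.63 at 16 °C and 0.323 to 0.812 at 22 °C, and lower at 22 °C in 6 of the 8 comparisons. The same ratio for actin was higher at 22 °C in 6 of the 8. The part of these array measures in the members' differences was not tested.

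Of the 45 members, 38 were higher at 22 °C in all 8 comparisons, against 1.75% of all probe sets, and the other 7 in 7 of 8. All 4 arrays at 22 °C lay above all 4 at 16 °C for 25 members in Ler, for 31 in phyB-1 and for 19 in both genotypes. The share of all probe sets without overlap in this direction was 1.86% in Ler, 2.28% in phyB-1 and 0.422% in both. The rule used these values, so nothing is read from the comparison. By time, the median difference was 0.81 at 4 h and 1.03 at 10 h in Ler, and 1.19 at 4 h and 1.04 at 10 h in phyB-1. The phyB-1 values by time use the disputed arrays. With replicate 1 alone the medians were 1.13 at 4 h and 1.31 at 10 h in Ler, and 1.28 at 4 h and 1.32 at 10 h in phyB-1. Without the pair of disputed arrays the rule found 61 probe sets, 43 of them among the 45. The members lost were AT4G23670, whose phyB-1 difference was 0.47 instead of 0.71, and an unnamed probe set. Over the 45 the phyB-1 difference without these arrays had a median of 1.16 and a range of 0.45 to 2.83. For the named members it ranged from 0.47 to 1.88, the latter for AT1G67860, which had 1.34 with them.

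The intensities of the genes with the largest differences are given next by the roles of their products, for the replicate 1 and then the replicate 2 array at each time. The genes are ranked by the smaller of their 2 differences, and full values are given for the 12 highest. AT5G12110 encodes a beta-type subunit of translation elongation factor 1, which reloads the elongation factor with GTP during protein synthesis. In Ler its intensity was 50.8 and 83.8 at 4 h and 12.3 and 38.1 at 10 h at 16 °C, and 134 and 232 at 4 h and 102 and 74.7 at 10 h at 22 °C. In phyB-1 it was 75.7 and 15.5 at 4 h and 27.6 and 100.3 at 10 h at 16 °C, and 188 and 302 at 4 h and 163 and 154 at 10 h at 22 °C. The groups overlapped in Ler, where the highest 16 °C array exceeded the lowest 22 °C array, and did not overlap in phyB-1. The difference was 1.32 in Ler and 1.77 in phyB-1. Its paralogue AT5G19510 differed by -0.02 in Ler and 0.13 in phyB-1, with means of 2729 ± 335 at 16 °C and 2719 ± 491 at 22 °C in Ler (SD, n = 4).

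RING1 encodes a RING-type E3 ubiquitin ligase linked to programmed cell death. In Ler it gave 111 and 123 at 4 h and 52.0 and 54.98 at 10 h at 16 °C, and 293 and 222 at 4 h and 238 and 114 at 10 h at 22 °C. In phyB-1 it gave 46.7 and 69.1 at 4 h and 48.9 and 76.5 at 10 h at 16 °C, and 179 and 153 at 4 h and 127 and 96.5 at 10 h at 22 °C. The Ler groups overlapped by the replicate 2 array at 10 h and 22 °C, and the phyB-1 groups did not. Its differences were 1.21 in Ler and 1.01 in phyB-1. AT1G65240, which encodes an aspartyl protease, was near background at 16 °C. Its Ler arrays read 7.05 and 1.29 at 4 h and 19.9 and 12.1 at 10 h at 16 °C, and 40.03 and 33.2 at 4 h and 48.7 and 35.5 at 10 h at 22 °C. Its phyB-1 arrays read 4.65 and 11.8 at 4 h and 21.3 and 1.27 at 10 h at 16 °C, and 28.6 and 33.8 at 4 h and 38.9 and 35.6 at 10 h at 22 °C. The groups did not overlap in either genotype, and the differences of 1.13 and 1.02 understate its ratio, since the offset exceeds most of the 16 °C values.

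The next genes encode enzymes or probable enzymes of metabolism and the cell wall. AT2G32160 encodes a member of a family of S-adenosylmethionine-dependent methyltransferases. Its intensity in Ler was 78.5 and 141 at 4 h and 41.5 and 92.4 at 10 h at 16 °C, and 458 and 283 at 4 h and 207 and 175 at 10 h at 22 °C. In phyB-1 the values were 84.8 and 150.3 at 4 h and 62.5 and 153 at 10 h at 16 °C, and 525 and 353 at 4 h and 147 and 149.8 at 10 h at 22 °C. Ler showed no overlap, while in phyB-1 the 10 h arrays at 22 °C stood just below the replicate 2 arrays at 16 °C. The differences were 1.51 in Ler and 1.15 in phyB-1, and 1 of the 8 array comparisons was negative, at -0.03. That comparison and the overlap in phyB-1 rested on disputed arrays. Without both disputed arrays the phyB-1 difference was 1.61. AT1G07440 encodes a tropinone reductase-like enzyme of the short-chain dehydrogenase class. It read 145 and 173 at 4 h and 108 and 201 at 10 h in Ler at 16 °C, and 347 and 274 at 4 h and 396 and 378 at 10 h at 22 °C. The phyB-1 arrays read 147 and 189.7 at 4 h and 92.5 and 112 at 10 h at 16 °C, and 322 and 193 at 4 h and 420.3 and 349 at 10 h at 22 °C. Its groups did not overlap in either genotype, and the differences were 1.096 in Ler and 1.15 in phyB-1.

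TBL38 belongs to the trichome birefringence-like family, which is linked to the acetylation of cell wall polysaccharides. In Ler it stood at 49.0 and 29.3 at 4 h and 38.8 and 30.0 at 10 h at 16 °C, and at 92.3 and 67.2 at 4 h and 138 and 75.5 at 10 h at 22 °C. In phyB-1 it stood at 64.1 and 37.4 at 4 h and 59.3 and 50.4 at 10 h at 16 °C, and at 123 and 145 at 4 h and 115 and 109 at 10 h at 22 °C. Neither genotype showed overlap, and the difference was 1.02 in both.

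AT5G39730 belongs to the AIG2-like family, named for a gene induced by bacterial avirulence. Ler arrays gave 121 and 94.4 at 4 h and 88.6 and 75.6 at 10 h at 16 °C, and 306 and 226 at 4 h and 199 and 162 at 10 h at 22 °C. The phyB-1 arrays gave 132 and 95.6 at 4 h and 101 and 118 at 10 h at 16 °C, and 298 and 266 at 4 h and 187 and 203 at 10 h at 22 °C. The groups did not overlap, with differences of 1.09 in Ler and 0.98 in phyB-1. AT5G22580 encodes a protein with a stress-responsive A/B barrel domain. It read 164 and 285 at 4 h and 137 and 217 at 10 h in Ler at 16 °C, and 506 and 347 at 4 h and 428 and 319.7 at 10 h at 22 °C. It read 248 and 193 at 4 h and 172 and 279 at 10 h in phyB-1 at 16 °C, and 929.9 and 711 at 4 h and 484 and 383 at 10 h at 22 °C. The groups did not overlap, and the difference was 0.97 in Ler and 1.37 in phyB-1. AT3G26450 encodes a major latex protein-like member of the Bet v 1 family, small proteins that bind hydrophobic ligands. Its Ler values were 383 and 358 at 4 h and 167 and 164 at 10 h at 16 °C, and 858 and 582 at 4 h and 309 and 305 at 10 h at 22 °C. Its phyB-1 values were 306 and 217 at 4 h and 171 and 365 at 10 h at 16 °C, and 833 and 484 at 4 h and 336 and 336 at 10 h at 22 °C. Taken over both times the groups overlapped in each genotype. The 4 h arrays were brighter than the 10 h arrays in Ler, and within each time the Ler groups were apart. The differences were 0.87 in Ler and 0.83 in phyB-1, and the 10 h comparison of replicate 2 in phyB-1, which uses a disputed array, was negative, at -0.11.

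No role is given here for the other 3 of the 12. AT1G64360 gave 63.3 and 80.4 at 4 h and 58.1 and 80.7 at 10 h in Ler at 16 °C, and 203 and 144 at 4 h and 188 and 126 at 10 h at 22 °C. In phyB-1 it gave 38.3 and 39.9 at 4 h and 63.0 and 47.4 at 10 h at 16 °C, and 188 and 122 at 4 h and 271 and 98.1 at 10 h at 22 °C. There was no overlap in either genotype, and the differences were 1.05 in Ler and 1.48 in phyB-1. AT1G67860 gave 80.8 and 135 at 4 h and 105 and 120.3 at 10 h in Ler at 16 °C, and 202 and 185 at 4 h and 319 and 166 at 10 h at 22 °C. In phyB-1 its values were 58.1 and 119.6 at 4 h and 32.4 and 101 at 10 h at 16 °C, and 215 and 176 at 4 h and 249 and 184 at 10 h at 22 °C. There was again no overlap, with differences of 0.87 in Ler and 1.34 in phyB-1. AT4G22160 was dim, at 35.5 and 7.68 at 4 h and 5.22 and 6.71 at 10 h in Ler at 16 °C, and 46.8 and 19.1 at 4 h and 36.6 and 33.9 at 10 h at 22 °C. The phyB-1 arrays had 11.5 and 17.3 at 4 h and 10.1 and 25.9 at 10 h at 16 °C, and 32.8 and 26.0 at 4 h and 62.4 and 36.4 at 10 h at 22 °C. The Ler groups overlapped by the 4 h replicate 1 array at 16 °C and the phyB-1 groups did not, with differences of 0.83 and 0.77. In phyB-1 the highest 16 °C array, a disputed one at 25.93, stood just below the lowest 22 °C array, at 25.98.

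The other 8 named members had smaller differences of 0.71 to 0.76, and their values are means ± SD of 4 arrays. As with all SDs of 4 arrays given here, both times are mixed, so the SD includes the change between 4 h and 10 h. AT2G19310, a small heat shock protein of the HSP20-like family, went from 131 ± 36.3 at 16 °C to 228 ± 44.4 at 22 °C in Ler, and from 111 ± 23.2 to 213 ± 42.9 in phyB-1. It was the only one of these 8 without overlap in both genotypes. MYBC1, a MYB-type transcription factor described as a negative regulator of freezing tolerance, was at 13.0 ± 11.3 at 16 °C and 30.5 ± 5.70 at 22 °C in Ler, and at 11.7 ± 5.56 and 31.8 ± 9.19 in phyB-1. AT3G16800, a protein phosphatase of the clade E growth-regulating PP2C group, stood at 29.3 ± 11.9 and 58.3 ± 12.5 in Ler, and at 30.5 ± 12.8 and 101 ± 14.2 in phyB-1. Its difference was 0.74 in Ler and 1.36 in phyB-1, among the most unequal of the named members. The limma contrast between the 2 differences was not called for AT3G16800 (adjusted p = 0.9999). Both differences entered the rule, so nothing is read from this inequality or from its contrast. AT1G62480, a vacuolar calcium-binding protein-related gene, was also unequal, at 0.73 in Ler and 1.22 in phyB-1. Its means were 79.7 ± 34.6 and 145 ± 69.2 in Ler, and 77.8 ± 38.5 and 202 ± 84.4 in phyB-1.

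AT4G23670, a second major latex protein-like gene, had 1188 ± 229.7 at 16 °C and 1977 ± 525 at 22 °C in Ler, and 1385 ± 412 and 2251 ± 495 in phyB-1. AT2G24390, a second AIG2-like gene, was dim, at 14.8 ± 14.2 and 33.8 ± 5.83 in Ler, and 9.10 ± 6.74 and 25.5 ± 8.04 in phyB-1. AT3G18215, of the DUF599 family of unknown function, differed by 0.74 in Ler and 0.81 in phyB-1. AT5G16030 differed by 0.73 in Ler and 0.77 in phyB-1, from 323 ± 200.04 to 496 ± 163 and from 305 ± 119 to 504 ± 71.5. Its 4 h arrays were brighter than its 10 h arrays in Ler at both temperatures.

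The members closest to the limit were AT4G23670, AT1G62480 and AT5G16030, whose smaller differences were 0.71, 0.73 and 0.73. Just outside it were Hop3, with 1.03 in Ler and 0.696 in phyB-1, AT1G63540 with 0.69 and 0.82, and AT4G20880 with 0.69 and 0.78. Of the 45 members, 6 were below the array's lower quartile of intensity on at least 4 of the 8 arrays at 16 °C, 3 of them named.

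The unnamed members included the largest differences. Probe set 256245_at, which the annotation table does not list, read 3.02 and 3.22 at 4 h and 10.4 and 36.7 at 10 h in Ler at 16 °C, and 109.5 and 152 at 4 h and 81.8 and 113 at 10 h at 22 °C. In phyB-1 it read 1.63 and 25.4 at 4 h and 39.5 and 22.7 at 10 h at 16 °C, and 141 and 175 at 4 h and 293 and 250.3 at 10 h at 22 °C. The temperature groups did not overlap, and the differences were 2.26 in Ler and 2.65 in phyB-1. Probe set 252983_at, also not listed, read 234 and 264 at 4 h and 91.4 and 85.5 at 10 h in Ler at 16 °C, and 965 and 791 at 4 h and 493 and 555 at 10 h at 22 °C. In phyB-1 its values were 415 and 192 at 4 h and 199 and 495 at 10 h at 16 °C, and 1483 and 1318 at 4 h and 790.1 and 1061 at 10 h at 22 °C. Its groups did not overlap either, and the differences were 2.06 in Ler and 1.86 in phyB-1.

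Whether the members differed by genotype is a question the rule did not use. The mean of phyB-1 minus Ler over both temperatures and both times was tested with limma for the 41 members that passed the filter on intensity, 17 of them named, and p-values were adjusted by the Benjamini-Hochberg method over all 13648 probe sets tested. The member 259417_at alone passed an adjusted p of 0.05, against 0.117% of all probe sets tested, and it was higher in phyB-1, against 0.0953% called in that direction. In Ler it read 2.05 and 11.4 at 4 h and 0.872 and 3.80 at 10 h at 16 °C, and 35.3 and 30.7 at 4 h and 12.8 and 26.0 at 10 h at 22 °C. In phyB-1 it read 158 and 38.9 at 4 h and 73.8 and 179.6 at 10 h at 16 °C, and 484 and 429 at 4 h and 252 and 209 at 10 h at 22 °C. Every phyB-1 array was above every Ler array of either temperature. The genotype difference was 2.77 ± 0.23 (SE, adjusted p = 9.8e-05), with 2.50 at 16 °C and 3.04 at 22 °C. In Ler at 16 °C it lay under the array's lower quartile of intensity on 3 of 4 arrays, so the offset sets the size of differences from that group. Over the 27 alternatives the genotype difference of 259417_at was 1.70 to 4.07, and its temperature difference, 1.03 in Ler and 1.58 in phyB-1, was 0.39 to 2.58 in Ler and 1.16 to 2.00 in phyB-1. Its mean log2 value in Ler, 4.85, was under the filter's limit of 5.18, so it was tested only through its phyB-1 level of 7.62, and it was also called in the fit without the filter. The annotation table does not list its gene.

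No other tested member passed the test over 16 arrays. Of the 41, 2 passed the filter only through phyB-1 and 0 only through Ler, so the following counts are a description. The median genotype difference of the 41 was 0.15, against 0.02 over all probe sets tested, and 29 of the 41 were positive, which is 70.7% against 54.5%. An unadjusted p under 0.05 was found for 11 of the 41, or 26.8%, against 7.04% of all probe sets tested. Among the named members, RING1 had a genotype difference of -0.45 ± 0.15 (SE, adjusted p = 0.50). TBL38 had 0.38 ± 0.15 (adjusted p = 0.58), AT5G22580 had 0.37 ± 0.16 (adjusted p = 0.69), and AT3G16800 had 0.35 ± 0.15 (adjusted p = 0.64). In limma without the disputed arrays and with the replicate number as a term, 6 of the 41 members were called, 4 higher and 2 lower in phyB-1, against 1.96% of all probe sets tested and 0.982% in each direction. RING1 was the only named gene among them, at -0.64 ± 0.13 (SE, adjusted p = 0.014). Over the 27 alternatives its limma adjusted p ranged from 0.014 to 0.85, and that of 259417_at from 2.4e-09 to 0.001. In that fit 256245_at had 0.59 (adjusted p = 0.037) and 252983_at had 0.81 (adjusted p = 0.00036), and 259417_at had 2.87 ± 0.14 (SE, adjusted p = 2.4e-09). That fit rests on replicate 1 alone for phyB-1 at 16 °C, whose spread is assumed to be like that of the other groups. GAPDH 3′ to 5′ log2 ratios were highest on those replicate 1 arrays, 1.03 at 4 h and 1.63 at 10 h. The highest elsewhere was 0.812. Their actin ratios, 3.21 and 3.17, lay within the range of the other arrays. The part of this in the calls was not tested.

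The temperature difference was larger in phyB-1 than in Ler for 30 of the 45 members, or 66.7%, against 47.9% of all probe sets. Among the named members it was 11 of 20. These counts use the disputed arrays. Without them the phyB-1 difference also exceeded that in Ler for AT2G32160 (1.61), RING1 (1.25), AT3G26450 (0.96), AT4G22160 (1.01) and AT2G24390 (1.06). No named member changed the other way. The share of all probe sets without these arrays is not given here, so nothing is read from this change. The limma contrast between the 2 differences, over 16 arrays, was called for no tested member. Its adjusted p was 0.9999 also for LTI30, a cold response gene that is not a member. Both differences entered the rule, so nothing is read from this contrast and the counts are a description. The members with the largest excess in phyB-1 among the 12 genes described in full were AT1G67860, AT5G12110, AT1G64360 and AT5G22580.

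The members did not share a course between 4 h and 10 h. In Ler at 16 °C, Ler at 22 °C and phyB-1 at 22 °C, 19 members were lower at 10 h in all 3 groups, 9 of them named, and 11 were higher in all 3, 4 of them named. The other 15 were mixed. AT3G26450 changed by -1.09, -1.16 and -0.89 in the 3 groups, and AT5G12110 by -1.06, -0.90 and -0.55. AT5G16030 changed by -1.44, -0.80 and -0.32. In the other direction AT1G62480 changed by 0.89, 1.04 and 1.00, and AT3G18215 by 0.51, 0.72 and 0.89. The rule limited these changes, so they carry no test. In phyB-1 at 16 °C the replicates went opposite ways, with AT5G12110 changing by -1.07 in replicate 1 and 1.89 in replicate 2, and AT1G62480 by 0.95 and -0.86.

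The relatives and chromosomal neighbours of the named members were looked up after the members were known and were not tested. Of 6 AIG2-like genes with a named probe set, AT5G39730 and AT2G24390 are members, and the other 4 differed by -0.42 to 0.36 in Ler and -0.10 to 0.57 in phyB-1. Of 6 major latex protein-like genes, AT3G26450 and AT4G23670 are members, and the other 4 differed by -0.14 to 0.38 in Ler and -0.22 to 1.23 in phyB-1. The highest of them, AT4G23680, had 0.38 in Ler and 1.23 in phyB-1 but was near background, with 1.14 ± 0.848 at 16 °C and 26.7 ± 17.5 at 22 °C in phyB-1. The phosphatase genes AT3G05640 and AT5G27930, relatives of AT3G16800, had 0.35 and -0.08 in Ler. Among the 40 genes with a named probe set that lie within 2 protein-coding genes of a named member in the TAIR10.1 gene order, the median difference was 0.0043 in Ler and 0.0004 in phyB-1, and 15 were positive in both. AT2G32150, next to AT2G32160, had 1.099 in Ler and 0.48 in phyB-1, and AT1G67865, next to AT1G67860 and left out by name, had 2.12 and 2.69. No 2 named members lay within that distance of each other.

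Other genes known from work on temperature were taken from lists of 184 genes in all, and 31 of these, none a member, were measured by a named probe set. Of 7 cold response genes tested, 2 were lower at 22 °C in Ler, against 0.227% of all probe sets tested, and 2 in phyB-1, against 0.256%. They were the dehydrin gene LTI30, which fell by 1.93 in Ler (limma, adjusted p = 0.00069) and fell by 2.74 in phyB-1 (adjusted p = 1.7e-05), and COR15B, a chloroplast stroma protein gene of cold acclimation, which fell by 1.69 (adjusted p = 0.02) and fell by 1.79 (adjusted p = 0.0089). COR15B was not called in Ler when any 1 of the 8 Ler arrays was left out (limma, adjusted p = 0.059 to 0.14), nor in phyB-1 without phyB-1 22 °C 4 h replicate 2 or 10 h replicate 2 (adjusted p up to 0.065). The median of the 7 was -1.04 in Ler and -0.85 in phyB-1, against 0.01 and -0.0013 over all probe sets tested. Without the disputed arrays and with the replicate number as a term, 4 of the 7 were called lower in each genotype, against 3.42% of all probe sets tested in Ler and 2.26% in phyB-1. COR28 was called higher at 22 °C in phyB-1, at 0.95, against 3.53%. The auxin response repressor IAA29, the only named warmth and auxin gene, had 0.30 in Ler (adjusted p = 0.77) and 0.93 ± 0.25 in phyB-1 (SE, adjusted p = 0.14). Of the heat shock genes HSP22 and HSP15.7 were below the filter and ROF2 alone was tested, and it met the rule's limits before it was left out by name. None of the 3 low sugar, 5 flowering time, 2 leaf or 4 reference genes tested was called, nor the defence gene SAG101, the root gene PYK10 or the senescence gene WRKY6, in either genotype in the fit over 16 arrays. In the fit without the disputed arrays GI was called lower at 22 °C in Ler, and in phyB-1 AGL24 was called higher and SMZ and AT3G15450 lower. Genes of temperature and light signalling, floral organs and seeds had no named probe set and were not analysed here.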

How the data were processed

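Total RNA of whole plants without roots was hybridised to 1-colour ATH1 arrays, 2 in each of 8 groups. Per the submitters' processing notes, the authors made the deposited linear intensity values with MAS5 in GCOS, without versions given, and the array scaling was kept. A table of all samples held 22810 probe sets, 64 of them controls. Genes were named from the platform annotation supplied and the RefSeq table of TAIR10.1, and of 22746 probe sets 13513 had 1 gene, 503 several, and 8730 were not listed. No coordinates are given, since the genome build of the probe sets is not given in the sources used here. PHYB had no named probe set and was not analysed here.

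Values were analysed as log2(intensity + 16). Ranked by mean over the arrays, the upper 60%, or 13648 probe sets, were fitted in R 4.3.3 with limma 3.58.1 as 8 group means (eBayes with an intensity trend), with Benjamini-Hochberg adjustment, called at an adjusted p under 0.05. The filter kept 41 of the 45 members. The alternatives changed the offset, the scaling, the filter, the variance trend, the replicate number as a term and the arrays used. The number of arrays limits the precision. The members and gene lists were chosen with earlier results of these data known. Every member with 1 gene was named, the 12 with the largest smaller difference and any member called for genotype with full values, at most 2 other unnamed members by probe set, and of each list up to 4 called genes. Where a gene had several named probe sets, the brightest on average stood for it. The fitting was tested on simulated data.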

Additional observations from a re-analysis of the deposited data

Results flagged for a closer look

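Groups of 4 arrays of 1 genotype and temperature were searched for an array far from the other 3 for the named members and the unnamed probe sets described. For 4 values from a single normal distribution chance gives about 1 in 20, or 4.6 of 92. Each group here mixes arrays of 4 h and 10 h, so this number need not hold. Of the 92 groups searched, 2 had such an array. Both were on the array of Ler at 16 °C, 4 h, replicate 1. AT4G22160 read 35.5 there and 5.22 to 7.68 on the other arrays of Ler at 16 °C, which brought that group into the range of the 22 °C arrays. AT2G19310 read 76.5 there and 146 to 154 on the others, so that its difference in Ler was 0.54 without that array and 0.76 with it. The cause was not tested.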

How the results depend on the processing

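The number of members found by the rule, 45, was 189 with an offset of 1, 121 with an offset of 4, chosen after seeing the data, and 19 with an offset of 64. Of these, 38, 40 and 18 were among the 45. It was 39 to 61 when 1 array was left out, with 33 to 45 of the 45 kept, and 61 without both disputed arrays. The 16 probe sets called for genotype became 4 with an offset of 1, 6 with an offset of 4, 7 after quantile normalization, 6 after median centring, 6 without the filter, 131 without the disputed arrays and 268 with the replicate block as well. Leaving out 1 array gave 6 to 62, the highest without phyB-1 16 °C 4 h replicate 2. The members called, 1 in the main setting, were 3 without the disputed arrays and 6 with the replicate block as well, where RING1 passed. Leaving out 1 array gave 1 to 2, the latter without phyB-1 16 °C 4 h replicate 2 or 10 h replicate 1. The 54 probe sets called for temperature in Ler became 27 after median centring, 33 without the filter, 86 with the replicate block, 407 without the disputed arrays and 946 with the block as well, and 7 to 90 when 1 array was left out, without Ler 22 °C 10 h replicate 1 and phyB-1 16 °C 4 h replicate 1. The 87 in phyB-1 became 50, 57, 129, 522 and 790 in the same order, and 23 to 211, without phyB-1 22 °C 4 h replicate 1 and phyB-1 16 °C 4 h replicate 2.

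The replicate block was only an alternative, because the labels do not say what a replicate number shares. After each group's mean was taken off, arrays with the same number correlated above 0.1 in 27 of 28 pairs of groups, and the exception, phyB-1 at 16 °C at 4 h and 10 h, was at -0.43. Over the 6 other groups all 15 pairs were at 0.15 to 0.48. This is a hint from the data and not the design. With the block 23 probe sets were called for genotype.

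Depth is not defined for arrays. Differences of dim members depend on the offset, the values of phyB-1 at 16 °C rest in part on the disputed arrays, and 2 arrays a group leave a residual freedom of 8, or 5 without the disputed arrays and with the block.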

Other observations

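Besides the 45 members, 11 probe sets passed the temperature limits but changed by 1.5 or more between 4 h and 10 h in a group of the rule. One of them, AT1G62510, is also among the genes left out by name, and 5 of the other 10 have 1 gene. AT5G63190, AT5G51970, AT5G40450, AT3G56360 and AT1G21680 all had higher means at 10 h in the 3 groups of the rule. AT5G51970, a sorbitol dehydrogenase gene, had 357 ± 255 intensity units in Ler at 16 °C and 604 ± 409 at 22 °C (SD, n = 4), and changed by 1.67, 1.85 and 1.82 between 4 h and 10 h in Ler at 16 °C, Ler at 22 °C and phyB-1 at 22 °C. AT1G21680 had the largest Ler temperature difference of the 5, 1.09, against 0.73 in phyB-1. These genes were chosen after their values were seen and are given without a test.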
